A study of Homo sapiens with 8 samples.

Results

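The genes described here are 9 genes of the JAK-STAT pathway, namely the kinase JAK1, the transcription factors STAT2, STAT3, STAT5A, STAT5B and STAT6, the inhibitors SOCS1 and SOCS3, and IRF1. A TAZ peak was taken as belonging to them when its summit lay no more than 100 kb from the point where a GENCODE transcript of theirs starts (the TSS). Of 55334 TAZ peaks in 4 lists, 117 met this rule, and 13 of these lay near more than 1 of the 9 genes, since STAT5B, STAT5A and STAT3 are neighbours on chromosome 17. A peak is called a promoter peak when its summit was within 3 kb of a TSS of the gene, and a distal peak otherwise.

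The peaks come from chromatin immunoprecipitation and sequencing in MCF10A, an immortalised but non-transformed line of human mammary epithelial cells, transduced with a TAZ-4SA that doxycycline (Dox) switches on. In TAZ-4SA the co-activator TAZ has been altered so that the Hippo kinases restrain it less. Cells were kept without Dox or given 0.05 µg/ml Dox for 24, 48 or 72 h, and each condition had 1 library with an antibody to TAZ and 1 with IgG, all from the transduced line. Each peak list thus rests on 1 TAZ library, no test between times was possible, and every difference given is between single libraries.

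In the JAK-STAT pathway, a cytokine binds its receptor, the receptor-bound JAK kinases phosphorylate STAT proteins, and paired STAT proteins enter the nucleus and bind DNA at spaced palindromes. SOCS proteins are made in response and shut the receptor complex down. IRF1 is a transcription factor that interferon induces and that acts on interferon-stimulated genes. In mammary epithelium, STAT5 is known for its role in milk production and STAT3 for its role in the regression of the gland after weaning.

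The bases from 100 bp before to 100 bp after the 72 h summit are printed for 7 sites. They are examples of the 13 windows with an enrichment of at least 15 at 72 h or called in 3 or 4 lists, and 3 of the 13 held none of the letters below. All are from the plus strand of hg38. Capitals mark the TEAD letters CATTCC, the AP-1 letters TGACTCA and the STAT letters TTCNNNGAA, searched on both strands. TEAD factors are the main DNA-bound partners of TAZ, and AP-1 often sits beside them.
IRF1 downstream site, chr5:132445618-132445818: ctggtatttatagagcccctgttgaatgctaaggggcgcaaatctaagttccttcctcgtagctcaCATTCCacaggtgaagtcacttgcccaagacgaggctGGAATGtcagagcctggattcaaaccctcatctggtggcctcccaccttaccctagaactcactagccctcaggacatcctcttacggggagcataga
IRF1 far downstream site, chr5:132365289-132365489: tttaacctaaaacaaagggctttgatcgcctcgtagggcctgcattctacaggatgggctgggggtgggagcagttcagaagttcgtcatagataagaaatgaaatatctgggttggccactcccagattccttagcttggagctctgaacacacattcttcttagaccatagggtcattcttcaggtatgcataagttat
IRF1 upstream site, chr5:132506090-132506290: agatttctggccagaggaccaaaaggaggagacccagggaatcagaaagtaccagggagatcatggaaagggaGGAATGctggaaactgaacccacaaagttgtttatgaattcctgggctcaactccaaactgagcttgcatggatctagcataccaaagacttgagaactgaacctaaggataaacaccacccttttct
STAT3 intronic site, chr17:42325862-42326062: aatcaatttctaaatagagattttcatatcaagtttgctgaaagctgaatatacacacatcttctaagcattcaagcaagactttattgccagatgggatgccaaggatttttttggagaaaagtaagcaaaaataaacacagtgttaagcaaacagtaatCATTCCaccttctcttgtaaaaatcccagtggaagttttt
STAT3 upstream site by CAVIN1, chr17:42423351-42423551: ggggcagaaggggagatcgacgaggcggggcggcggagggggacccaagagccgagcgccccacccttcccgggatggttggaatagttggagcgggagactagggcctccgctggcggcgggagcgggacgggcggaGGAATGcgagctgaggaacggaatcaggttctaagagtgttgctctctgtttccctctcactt
STAT3 far upstream site, chr17:42428318-42428518: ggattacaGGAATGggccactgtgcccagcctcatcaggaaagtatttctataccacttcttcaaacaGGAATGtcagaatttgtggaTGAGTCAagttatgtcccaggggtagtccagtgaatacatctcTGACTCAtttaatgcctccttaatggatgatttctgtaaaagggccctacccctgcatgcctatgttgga
STAT6 promoter site, chr12:57112131-57112331: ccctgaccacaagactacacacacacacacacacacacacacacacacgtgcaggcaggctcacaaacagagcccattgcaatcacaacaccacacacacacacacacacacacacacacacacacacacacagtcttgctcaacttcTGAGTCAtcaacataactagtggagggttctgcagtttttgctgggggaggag
The IRF1 downstream window held 2 TEAD matches, and the STAT3 far upstream window held 2 TEAD and 2 AP-1 matches. The IRF1 far downstream window held none. The other windows held 1 match each, with TEAD letters in 3 and AP-1 letters in that of STAT6.

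Letters bound by the pathway itself were also looked for in the 250 bases before the canonical TSS of each of the 9 genes, read on the strand of the gene. As examples, and not as a full list of matches, 30 bases are shown around a STAT match of IRF1 and an interferon-stimulated response element (ISRE) match of SOCS1. IRF1 is a textbook target of STAT proteins.
IRF1 STAT match, chr5:132490878-132490907: acagcctgatTTCCCCGAAatgacggcacg
SOCS1 ISRE match, chr16:11256298-11256327: cgccaccgcgGAAAGAGAAAccaaaagtgg
The STAT match began 124 bases before the TSS of IRF1, and the ISRE match 113 bases before that of SOCS1. Over 20007 protein-coding genes, 5.67% had the STAT letters and 2.84% the ISRE letters in this stretch. AP-1 letters were in 0 of the 9 stretches, beside 3.06% of all genes, and TEAD letters in 1, that of STAT2, beside 9.86%. A match is a description of letters and not a measured binding site.

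TAZ peaks near the 9 genes numbered 11 of 2431 without Dox, 6 of 2469 at 24 h, 23 of 11767 at 48 h and 77 of 38667 at 72 h. Of these, 3, 3, 8 and 16 were promoter peaks, and 8, 3, 15 and 61 were distal. A peak within 100 kb was found for 8 of the 9 genes without Dox, for 5 at 24 h and for all 9 later. Among all protein-coding genes the shares were 34.3, 21.6, 56.5 and 90.2%. The 9 genes do not count independently. STAT5A and STAT5B shared their only peak without Dox and their only peak at 24 h, and each of these also counted for STAT3. The windows of the 9 genes were somewhat wider than usual, with a median of 235 kb against 209.5 kb for all protein-coding genes, as their start sites are spread out.

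**Figure D1:**
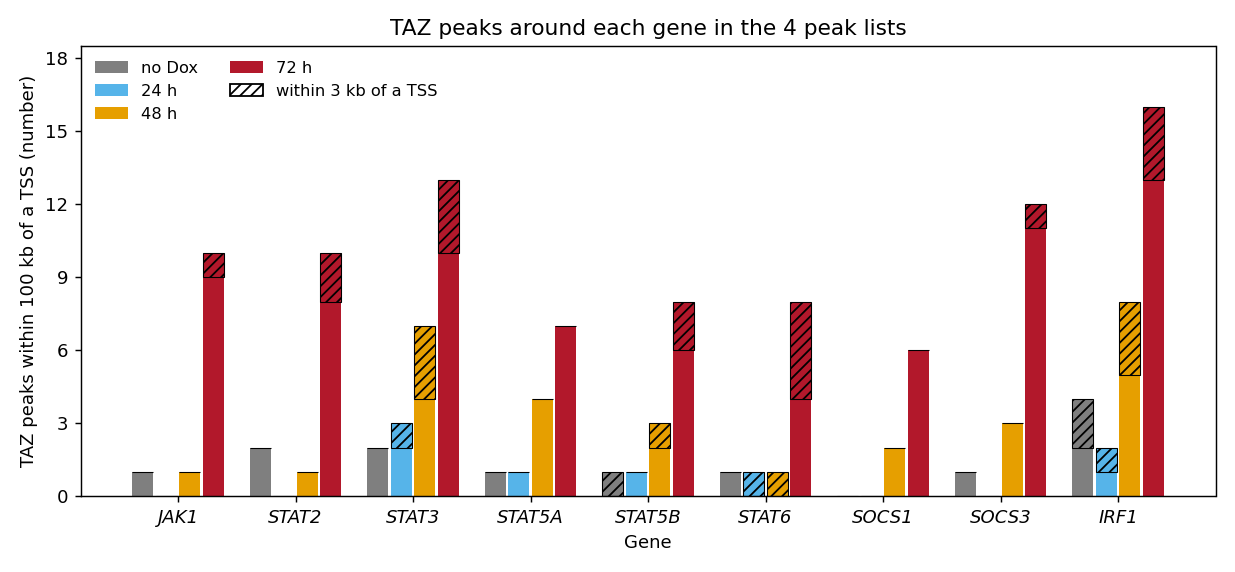
Number of TAZ peaks within 100 kb of a TSS of each gene (y axis) in the 4 lists (bar colours), with hatched parts for promoter peaks. IRF1 had the most peaks at 72 h with 16, SOCS1 the fewest with 6, and the peaks of STAT3, STAT5A and STAT5B overlap in part because the genes are neighbours.

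Promoter peaks were found at STAT5B and IRF1 without Dox, at STAT3, STAT6 and IRF1 at 24 h, and at STAT3, STAT5B, STAT6 and IRF1 at 48 h. At 72 h 7 genes had one, all but STAT5A and SOCS1. The counts of 2, 3, 4 and 7 of 9 stand beside 9.42, 2.55, 9.1 and 58.5% of protein-coding genes. Many of these peaks lay at internal or alternative start sites. Within 3 kb of the canonical TSS, the start of the transcript that the annotation names as representative, a peak was found for IRF1 alone without Dox, STAT6 alone at 24 h, and STAT3 and STAT6 at 48 h. At 72 h it was found for STAT2, STAT3, STAT5B, STAT6, SOCS3 and IRF1. These counts of 1, 1, 2 and 6 stand beside 8.14, 1.39, 4.71 and 53.4% of protein-coding genes.

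**Figure D2:**
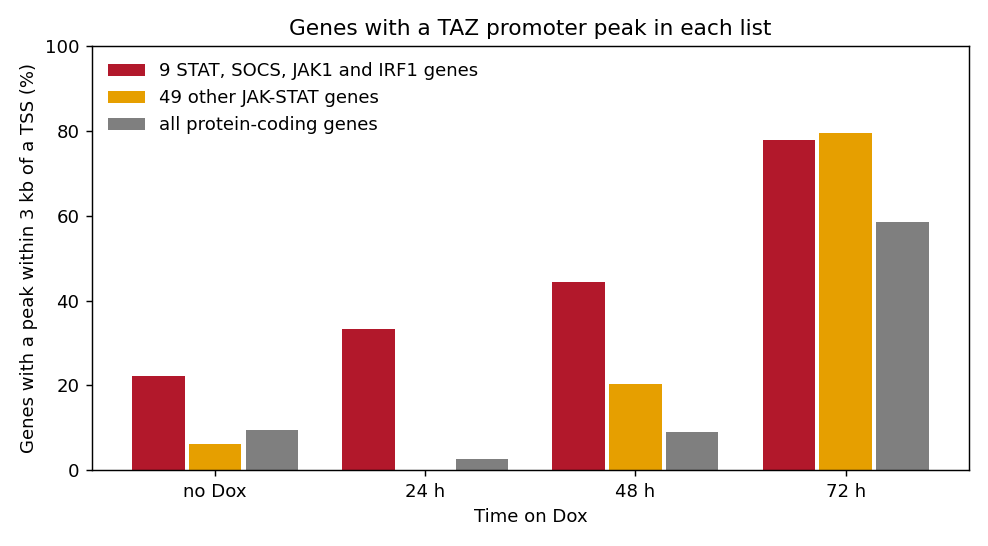
Share of genes with a promoter peak (y axis, %) in each list, for the 9 genes, 49 other JAK-STAT genes and all protein-coding genes. The 9 genes stood at 22.2, 33.3, 44.4 and 77.8%, where 1 gene is 11.1 percentage points.

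JAK1, the kinase shared by many cytokine receptors that signal through STAT proteins, lies on the minus strand of chromosome 1 (chr1:64833223-65067754). In the order no Dox, 24, 48 and 72 h, which counts below follow, it had 1, 0, 1 and 10 peaks. The strongest was in an intron, 48839 bp downstream of the canonical TSS. It was called at 48 h with a fold enrichment of 7.39 (95% interval 5.45 to 9.80, 46 fragments) and at 72 h with 12.9 (10.2 to 16.1, 77 fragments). Fold enrichment is the deposited ratio of ChIP signal to local background at the summit, and the intervals cover counting error only. The enrichment at 72 h was 1.78 times that at 48 h (1.22 to 2.63, from fragments over background), so these libraries differed at the site by more than counting error.

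The only JAK1 promoter peak, at 72 h, was 666 bp from the TSS of a long upstream transcript and 100399 bp upstream of the canonical TSS, with an enrichment of 6.82 (4.54 to 9.88). No list had a peak within 3 kb of the canonical TSS. The peak without Dox lay 159 bp before the TSS of the neighbour AK4, a mitochondrial adenylate kinase, with an enrichment of 5.21 (2.95 to 8.64). The 72 h peak that overlapped it had 4.13 (2.57 to 6.33), and the ratio of 0.642 (0.301 to 1.41) was within counting error.

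STAT3, the factor that carries signals of the interleukin-6 family, lies on the minus strand of chromosome 17 (chr17:42313324-42388540) and had 2, 3, 7 and 13 peaks in the 4 lists. At 24 h 98.9% of protein-coding genes had fewer peaks than STAT3, and at 72 h 92.2% had fewer. These counts were not scaled to window width, which was 271 kb for STAT3 beside a median of 209.5 kb. The distal peaks of STAT3 at 24 h were nearest to CAVIN1. The sites described are in an intron, at the promoter, and upstream next to CAVIN1.

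The intronic site lay 62480 bp into the gene from the canonical TSS and 753 bp from the TSS of a shorter transcript, so that the rule counts it as a promoter peak. It was not called without Dox, and its enrichment was 6.37 (3.91 to 9.88, 18 fragments) at 24 h, 11.6 (8.82 to 15.02, 56 fragments) at 48 h and 22.97 (18.8 to 27.8, 102 fragments) at 72 h. The step from 24 to 48 h was within counting error (ratio 1.58, 0.913 to 2.85). That from 48 to 72 h was beyond it (2.04, 1.46 to 2.88). The summits at the 3 times were within 32 bp of each other. A second site in the gene, 58883 bp from the canonical TSS, was called at 48 h with 5.29 (3.55 to 7.61) and at 72 h with 10.1 (7.63 to 13.1).

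At the canonical promoter of STAT3 the summit lay 321 bp before the TSS at 72 h. No peak was called there without Dox or at 24 h, and the enrichment was 4.36 (2.83 to 6.45) at 48 h and 7.67 (5.91 to 9.80) at 72 h. The ratio of 1.68 (1.03 to 2.85) was just beyond counting error. In both lists the promoter had a lower value than either intragenic site, but its interval overlapped that of the second site each time.

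The site 35009 bp upstream of STAT3 was 195 bp before the TSS of CAVIN1, which encodes a coat protein of caveolae, and was called in every list. Its enrichment was 5.27 (3.23 to 8.16, 18 fragments) without Dox, 5.59 (3.34 to 8.87, 16 fragments) at 24 h, 7.09 (5.07 to 9.66, 38 fragments) at 48 h and 28.0 (23.6 to 33.0, 143 fragments) at 72 h. The values of the first 3 lists overlapped, and only the 72 h value stood apart, at 4.09 times that at 48 h (2.84 to 6.01). About 5 kb further upstream, 39976 bp from the canonical TSS, was a site with TEAD and AP-1 letters that was not called without Dox.

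That far upstream site had an enrichment of 7.27 (4.92 to 10.4, 28 fragments) at 24 h, 4.47 (3.33 to 5.88, 49 fragments) at 48 h and 18.2 (14.3 to 22.8, 74 fragments) at 72 h. It was the single site near the 9 genes where a later list was lower beyond counting error, at 0.513 times from 24 to 48 h (0.316 to 0.848). The expected background there was 2.99 fragments at 24 h and 10.2 at 48 h. The ratio was thus lower through a larger divisor, while the fragments rose. Its interval takes these backgrounds as known and leaves out their error. Why the background differed was not tested.

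STAT5B and STAT5A, which carry prolactin and growth hormone signals, lie next to STAT3 (chr17:42199176-42288633 on the minus strand and chr17:42287547-42311943 on the plus strand). STAT5B had 1, 1, 3 and 8 peaks and STAT5A 1, 1, 4 and 7. No peak of STAT5A was within 3 kb of any of its start sites, and all 7 peaks at 72 h were also within 100 kb of STAT3 or STAT5B. The strongest was the STAT3 intronic site, 19792 bp from the nearest STAT5A TSS.

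The STAT5B site called in 3 lists lay in an intron, 1335 bp from an alternative TSS and 42917 bp downstream of the canonical TSS. Its enrichment was 5.04 (3.01 to 7.996, 16 fragments) without Dox, 5.03 (3.47 to 7.07, 31 fragments) at 48 h and 12.0 (9.38 to 15.2, 68 fragments) at 72 h, with no peak at 24 h. The first and second of these values did not differ beyond counting error, and the 72 h value was 2.48 times that at 48 h (1.60 to 3.93). At the canonical promoter of STAT5B the only peak was at 72 h, 93 bp before the TSS, with 3.79 (2.46 to 5.61). The strongest STAT5B peak whose nearest gene was none of the 9 was 44 bp before the TSS of RAB5C, a regulator of early endosomes, with 12.2 (9.58 to 15.2) at 72 h.

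STAT2, a factor of the interferon response, lies on chromosome 12 (chr12:56341597-56360203, minus strand) and had 2, 0, 1 and 10 peaks. Its promoter peaks were called at 72 h alone. The summit 298 bp before the canonical TSS had an enrichment of 5.85 (4.14 to 8.04, 36 fragments), and a second summit 948 bp past the TSS had 5.46 (3.94 to 7.39, 40 fragments). The remaining 8 peaks at 72 h all had another gene as the nearest, among them ANKRD52, CS, CNPY2, PAN2, IL23A and TIMELESS. The strongest was 284 bp before the TSS of CNPY2, with 4.16 (2.44 to 6.70) without Dox and 11.8 (8.94 to 15.2) at 72 h. The overlapping peaks at PAN2 and IL23A had 4.16 without Dox and 4.19 at 72 h, at summits 408 bp apart. The ratio of fragments over background was 0.897 (0.463 to 1.81), within counting error.

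STAT6, which carries interleukin-4 and interleukin-13 signals, lies further along chromosome 12 (chr12:57095408-57132139, minus strand) and had 1, 1, 1 and 8 peaks. Its promoter site was called in every Dox list and not without Dox. The summit was 869 bp before the canonical TSS at 72 h, and the enrichment was 4.39 (2.79 to 6.60, 21 fragments) at 24 h, 5.72 (4.14 to 7.71, 41 fragments) at 48 h and 9.98 (7.83 to 12.6, 71 fragments) at 72 h. The values at 24 and 48 h were within counting error of each other (ratio 1.24, 0.713 to 2.20). The 72 h value was 1.77 times that at 48 h (1.19 to 2.66). The window printed above is a run of CA repeats with an AP-1 match beside it.

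The highest STAT6 value was at 72 h, with 18.2 (14.1 to 23.2, 64 fragments) at a site 22100 bp upstream of the canonical TSS, 1323 bp before the start of a long STAT6 transcript and inside an intron of LRP1, an endocytic receptor. It was in no earlier list. A site 375 bp before the TSS of NAB2, a co-repressor of EGR factors, had 4.98 (2.88 to 8.14) without Dox and 15.9 (12.5 to 19.9) at 72 h, a ratio of 2.85 (1.60 to 5.47), and no peak at 24 or 48 h.

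SOCS3, the inhibitor that binds JAK kinases and gp130-type receptors, lies on chromosome 17 (chr17:78356778-78360077, minus strand) and had 1, 0, 3 and 12 peaks. The strongest TAZ summit near any of the 9 genes was 6975 bp downstream of its TSS, past the end of the gene and outside any protein-coding gene. No peak was called there without Dox or at 24 h, and the enrichment was 9.03 (7.08 to 11.4, 71 fragments) at 48 h and 46.7 (41.2 to 52.7, 259 fragments) at 72 h. The rise was 5.57 times (4.27 to 7.35), and 99.4% of all peaks at 72 h had a lower enrichment. The summits of the 2 lists were 12 bp apart.

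The SOCS3 promoter had a peak at 72 h alone, 107 bp before the TSS, with an enrichment of 8.64 (6.38 to 11.5, 46 fragments). Further downstream a peak without Dox had 6.40 (4.03 to 9.71, 20 fragments) at 18225 bp from the TSS, and the peak at 48 h had 4.14 (2.61 to 6.29, 20 fragments) at nearly the same summit. A single broad peak covered both at 72 h, with 9.82 (7.595 to 12.5, 64 fragments) at a summit 1995 bp away from that without Dox, so these values belong to different summits. Between 25359 and 45713 bp downstream 6 more peaks were called at 72 h alone, with 4.38 to 12.3. In the other direction, a peak at the TSS of PGS1, an enzyme of cardiolipin synthesis, had 9.19 (7.17 to 11.6).

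SOCS1, the inhibitor best known for limiting interferon signals, lies on chromosome 16 (chr16:11254417-11256204, minus strand). It had no peak without Dox or at 24 h, 2 at 48 h and 6 at 72 h, and 56.2% of protein-coding genes had fewer at 72 h. All 6 lay between 51318 and 89310 bp upstream, and RMI2, a subunit of the BLM helicase complex, was nearer to each of them. The strongest had 10.5 (7.81 to 14.0) at 72 h. The peaks called at both times had 5.33 and 9.29, and 3.997 and 8.13, at 48 and 72 h. The first ratio, 1.71 (0.993 to 3.02), was within counting error and the second, 2.11 (1.17 to 3.96), was not. No peak covered the SOCS1 promoter with its ISRE letters in any list.

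IRF1 lies on chromosome 5 (chr5:132440440-132508719, minus strand, longest transcripts included) and had 4, 2, 8 and 16 peaks, the most of the 9 genes in every list but that at 24 h, where STAT3 had 3. More peaks than 98.6, 95.5, 99.1 and 97% of protein-coding genes were thus found around it in the 4 lists, in a window of 256 kb and without scaling to width. An unnamed protein-coding gene model overlaps IRF1 over most of its length, so intronic positions here belong to both.

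The IRF1 downstream site, 45055 bp from the canonical TSS, was called in every list. Its enrichment was 4.17 (2.56 to 6.47, 18 fragments) without Dox, 5.98 (4.07 to 8.51, 29 fragments) at 24 h, 18.3 (15.4 to 21.6, 141 fragments) at 48 h and 26.3 (22.97 to 30.02, 220 fragments) at 72 h. The first step was within counting error (ratio 1.43, 0.766 to 2.73). The step from 24 to 48 h was the larger of the others at 2.89 (1.93 to 4.47), and that from 48 to 72 h was 1.42 (1.15 to 1.77).

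The IRF1 upstream site lay 15417 bp before the canonical TSS and 2529 bp from the TSS of a longer transcript. It was not called without Dox, and had 6.36 (4.204 to 9.28, 25 fragments) at 24 h, 8.07 (6.34 to 10.1, 72 fragments) at 48 h and 22.5 (18.4 to 27.2, 102 fragments) at 72 h. The rise from 48 to 72 h was 3.18 times (2.33 to 4.37). Nearer to the gene, a broad region around 5465 bp before the canonical TSS had 3.98 without Dox, 2 peaks of 5.04 and 7.83 at 48 h, and a single peak of 12.7 (10.7 to 15.03) at 72 h, with summits up to 1624 bp apart.

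At the canonical IRF1 promoter the pattern was different. A peak was called without Dox with 6.09 (4.02 to 8.88, 25 fragments), not at 24 or 48 h, and again at 72 h with 7.99 (6.03 to 10.4, 54 fragments). The ratio of 1.1996 (0.734 to 2.01) was within counting error, so no gain at this promoter was detectable between these 2 libraries. The 72 h summit was 72 bp before the TSS, and the printed STAT letters lie within the peak.

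The highest enrichment in the IRF1 window belonged to the far downstream site, 125384 bp downstream of the canonical TSS and 4321 bp before that of SLC22A5, a carnitine transporter. It had 5.98 (3.88 to 8.85, 23 fragments) without Dox, no peak at 24 h, 17.1 (14.1 to 20.5, 110 fragments) at 48 h and 32.9 (28.2 to 38.2, 170 fragments) at 72 h. At SLC22A5 itself 2 further sites had 7.16 and 12.5 at 72 h, and the TSS of RAD50, a DNA repair gene, had 10.1. The nearness of IRF1 alone does not assign these sites to it.

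**Figure D3:**
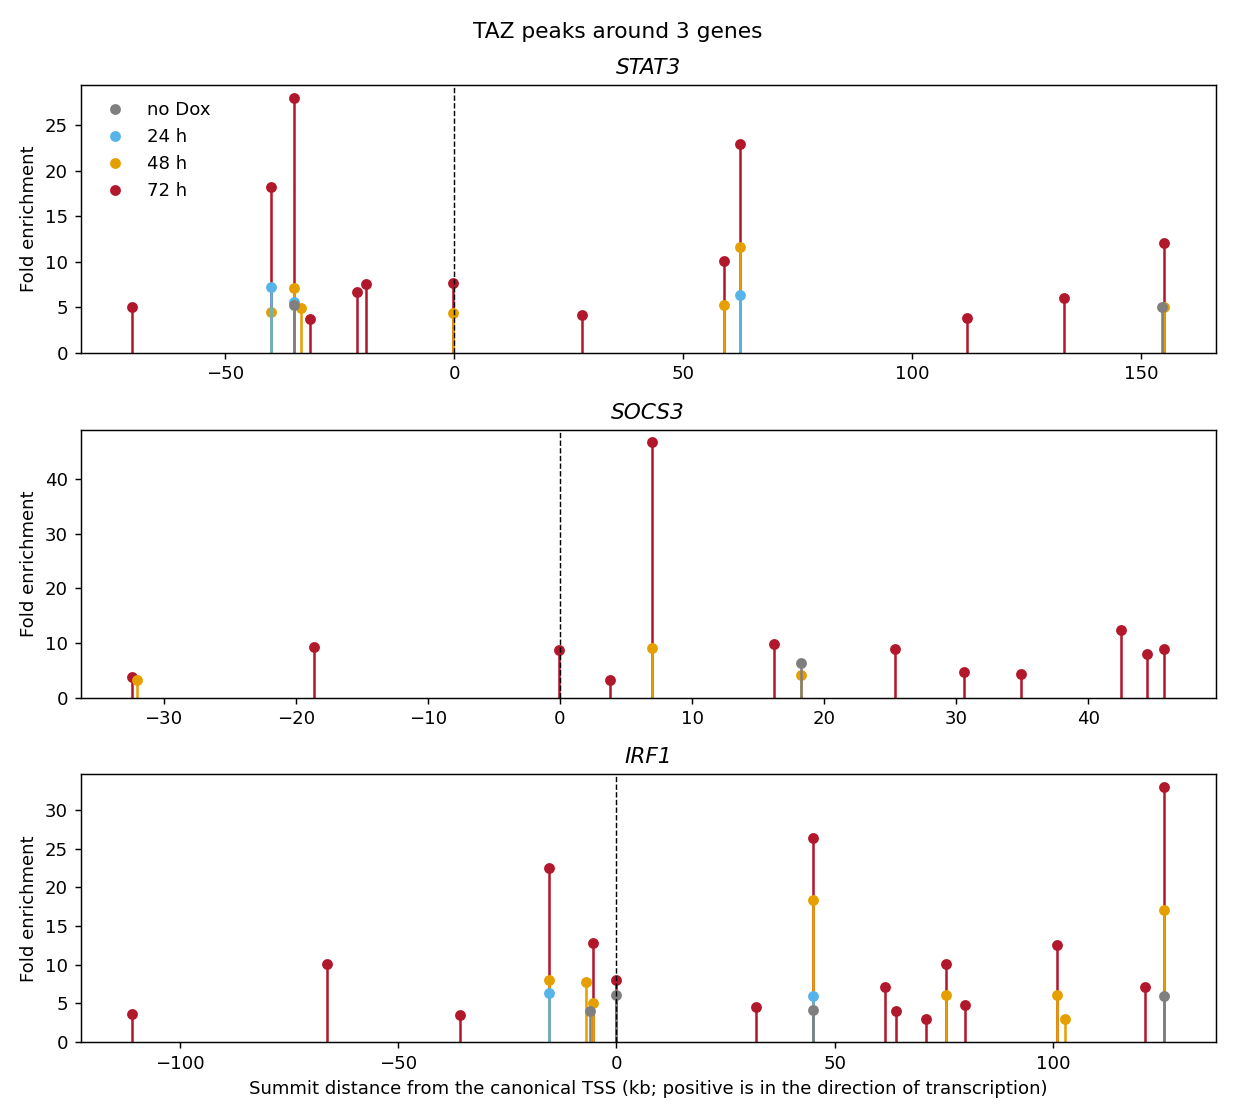
TAZ peaks around STAT3, SOCS3 and IRF1, with the distance of each summit from the canonical TSS in kb (x axis) and its fold enrichment (y axis), coloured by list. The tallest stems, 28.0 at STAT3, 46.7 at SOCS3 and 32.9 at IRF1, are all at 72 h and away from the TSS, which the dashed line marks.

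**Figure D4:**
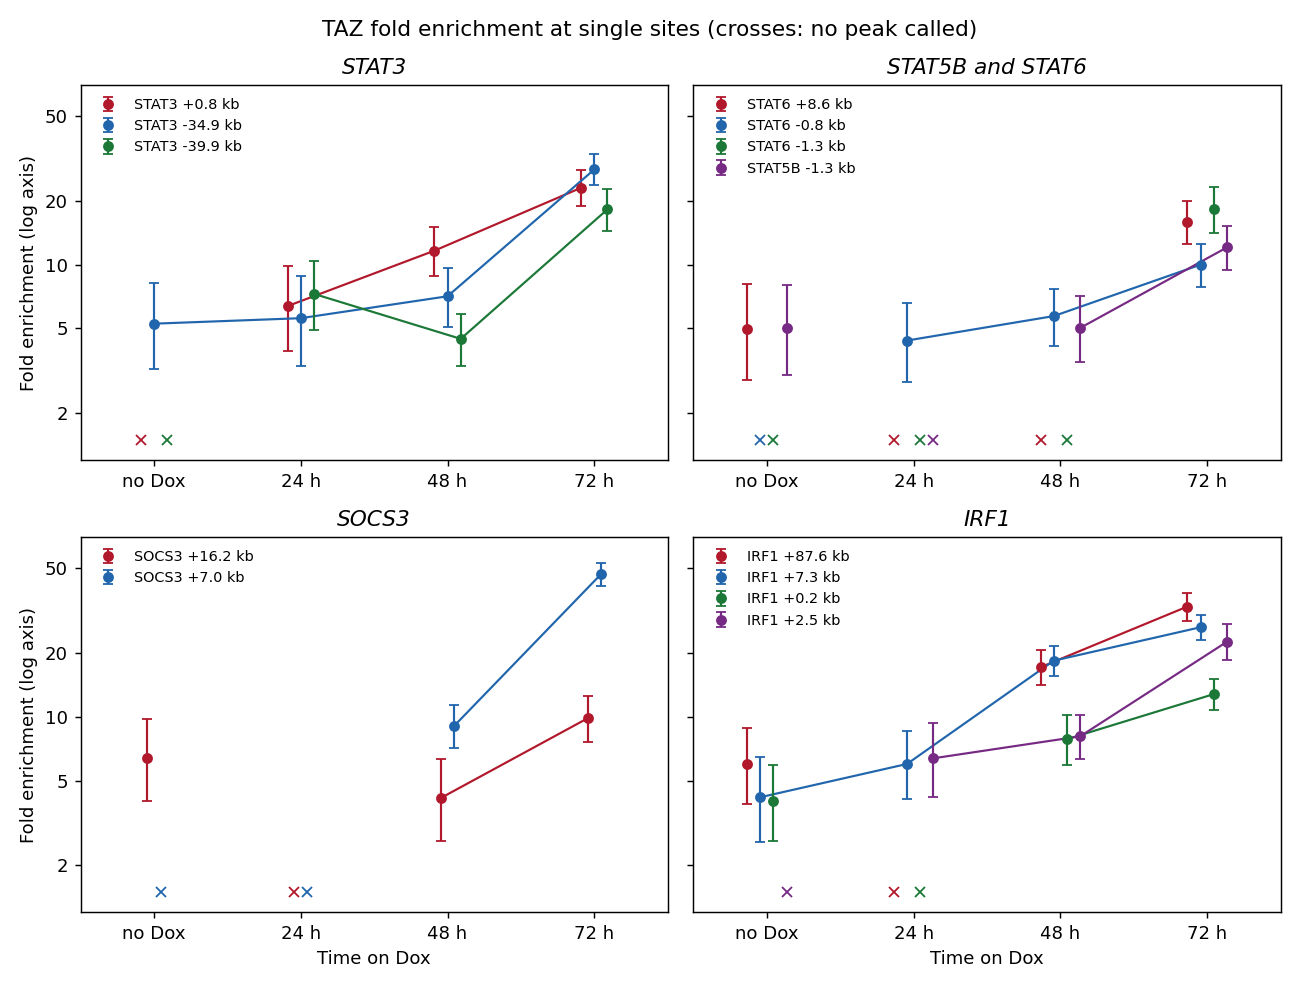
Fold enrichment (log axis) in the 4 lists at the sites called in at least 3 lists or with at least 15 at 72 h, named by the distance to the nearest TSS of any transcript. Bars are 95% intervals for counting error, crosses are lists without a call, and lines join neighbouring lists that both had a peak. The 72 h value is the highest at every site shown, which the choice of sites by their 72 h value favours. The far upstream STAT3 site is lower at 48 h than at 24 h.

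When overlapping peaks were merged, the 117 peaks gave 77 regions, and each of the 77 was called at 72 h. So were nearly all of the 39503 regions of the whole series. Its largest groups without a 72 h call were 509 regions at 48 h alone and 251 without Dox alone. At 72 h alone were 52 regions, or 67.5%, against 66.5% of the 39503 regions of the whole series. Another 10 (13.0%, against 21.2% of all regions) were called at 48 and 72 h, and 4 (5.19 against 4.52%) in each Dox list but not without Dox. Without Dox and at 72 h were 5 (6.49 against 3.26%), without Dox and at 48 and 72 h 4 (5.19 against 0.929%), and in every list 2 (2.60 against 1.10%). These shares rest on 2 to 10 regions each. All 6 peaks of the 24 h list and all 23 of the 48 h list were called again at 72 h (of all peaks, 96.7 and 95.3% were). Of the 11 peaks without Dox, 2 were called at 24 h, 6 at 48 h and 11 at 72 h, where the shares over all peaks were 20.1, 32.0 and 89.3%. With 11 peaks, the exact interval of the second share runs from 23.4 to 83.3%.

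From 48 to 72 h the median ratio of fold enrichment over 20 shared regions was 1.92, and 18 of the 20 were higher beyond counting error. Over all 10978 regions shared by these lists it was 1.88. From 24 to 72 h it was 3.57 over 6 regions, all 6 higher beyond counting error, beside 2.82 over all shared regions. Between no Dox and 72 h 7 of 11 regions were higher beyond counting error, with a median ratio of 2.83 beside 1.84. The 4 that were not were those at AK4, PAN2 and IL23A, SOCS3 (the distal region with different summits) and the canonical IRF1 promoter. For all shared regions the median ratios alone are given, and not how many were higher beyond counting error. The counts of higher regions are therefore not read as particular to the genes described here.

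Neighbouring genes took many of these peaks. Another gene had the nearest TSS for 7 of 11 peaks without Dox, 3 of 6 at 24 h, 12 of 23 at 48 h and 44 of 77 at 72 h. For 5, 1, 5 and 26 of these the summit was within 3 kb of that other gene's TSS. Around STAT2, SOCS1 and the far side of IRF1, the sites at 72 h were thus mostly at or in neighbouring genes, while those of JAK1, SOCS3 and the STAT3 gene body were mostly nearest to the gene itself.

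The base composition of the sites differed between lists. TEAD letters were within 100 bp of the summit in 1 of 11 peaks without Dox, 5 of 6 at 24 h, 12 of 23 at 48 h and 19 of 77 at 72 h. Over all peaks the shares were 21.7, 59.4, 50.4 and 35.5%, and each was inside the exact interval of the 9 genes' share, as at 72 h with 24.7% (15.6 to 35.8). The GC box (GGGCGG), which is common in promoters, was in 8 of 11, 1 of 6, 6 of 23 and 27 of 77 windows, beside 41.0, 7.97, 5.80 and 21.4% of all peaks. At 48 h (26.1%, 10.2 to 48.4) and 72 h (35.1%, 24.5 to 46.8) the share of all peaks lay below the interval. In windows of 50 bp to each side it lay inside, with 13.0% (2.78 to 33.6) beside 3.25% of all peaks at 48 h and 20.8% (12.4 to 31.5) beside 13.8% at 72 h. Median GC content at 72 h was 59.2% at promoter summits and 57.2% at distal summits of the 9 genes, and 49.8% over all peaks.

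STAT letters were in 0 of 11, 0 of 6, 5 of 23 and 8 of 77 summit windows, beside 5.29, 12.7, 10.8 and 7.95% of all peaks, and ISRE letters in 1 of 77 at 72 h, beside 2.39%. AP-1 letters were in 15 of 77 windows at 72 h, beside 16.0%. Merged regions were each read at their strongest summit. TEAD letters were in 5 of the 6 called at 24 h. They were in 5 of the 14 called at 48 h but not at 24 h. Those called at 72 h alone held them in 8 of 52. Among regions called without Dox but not at 24 or 48 h, 1 of 5 held them. All 5 were also called at 72 h, which this class does not require. Over all regions the shares in these classes were 59.6, 48.6, 29.9 and 11.8%. Of the 6 and the 14, 2 and 4 were also called without Dox. The GC box was in 1, 4, 19 and 3 of the 4 classes, beside 8.17, 6.70, 25.5 and 51.4% of all regions.

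**Figure D5:**
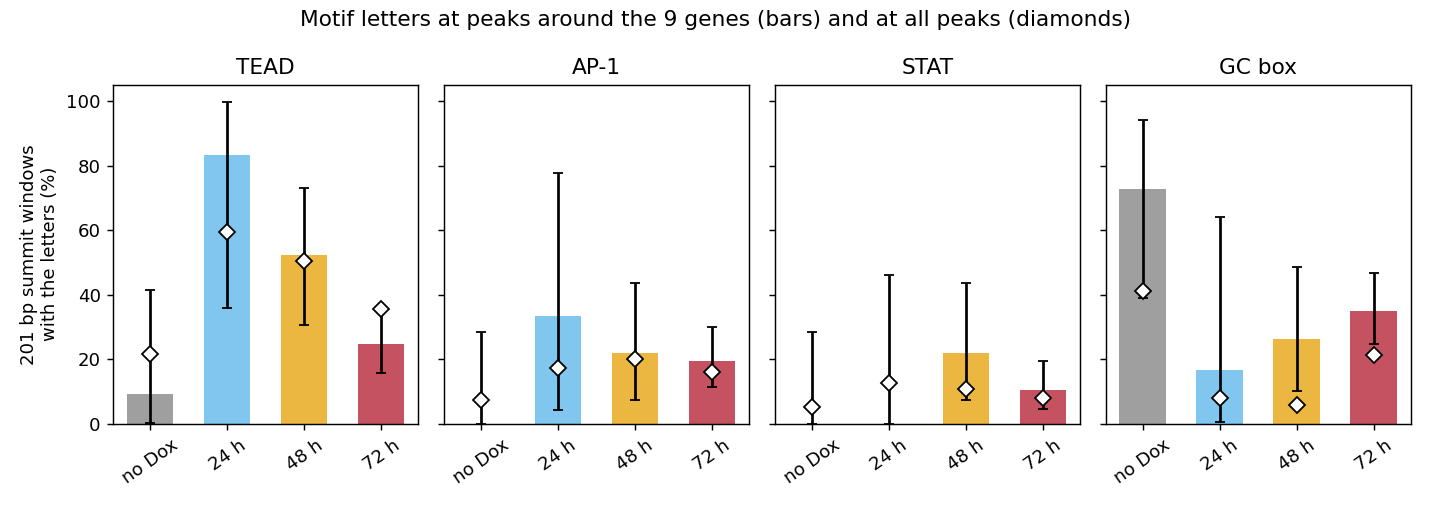
Share of summit windows, 100 bp to each side, with the TEAD, AP-1, STAT and GC box letters (y axis, %) for the peaks of the 9 genes (bars, with exact 95% intervals) and for all peaks of each list (diamonds). For TEAD the diamonds lie within the intervals in all 4 lists, and for the GC box they lie below them at 48 and 72 h, which was not so in windows of 50 bp to each side.

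The rest of the pathway was read from 49 other genes. Promoter peaks were found for 3, 0, 10 and 39 of them in the 4 lists, or 6.12, 0, 20.4 and 79.6%. Among all protein-coding genes the shares were 9.42, 2.55, 9.1 and 58.5%, so most genes had a promoter peak at 72 h. By role, the genes with one at 72 h were 3 of 6 ligands, 15 of 16 receptors and 3 of 3 kinases. The others were 1 of 2 STAT genes, 13 of 14 inhibitors and 4 of 8 IRF genes. At 48 h 6 receptors and 4 inhibitors had one, and no other role did. For 27 of the 49 the first promoter peak was at 72 h, and 10 had none in any list.

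The highest promoter values without Dox were those of SOCS5 (5.10), a further inhibitor, the phosphatase PTPN6 (5.04) and the ligand CLCF1 (3.32). Of these, the PTPN6 summit lay 2501 bp past its TSS. At 48 h the highest values were those of LEPR (8.41), the leptin receptor, IFNGR2 (8.41), a chain of the interferon-gamma receptor, and OSMR (7.72), the oncostatin M receptor. The LEPR and IFNGR2 summits lay 2685 and 2293 bp before the TSS, beyond a promoter of 1 kb, and that of OSMR 65 bp before it. At 72 h OSMR led with 31.1 at a summit 59 bp before its TSS. It was followed by PTPN2, a phosphatase that acts on JAK and STAT proteins, with 25.2 and IFNGR2 with 20.5. The PTPN2 summit lay 1230 bp past its TSS and that of IFNGR2 2208 bp before its TSS. The highest promoter values of the 9 genes at this time were 22.97 (18.8 to 27.8) at STAT3 and 22.5 (18.4 to 27.2) at IRF1. Both intervals lay below the value of OSMR and held those of PTPN2 and IFNGR2. The values belong to the intronic STAT3 site and the IRF1 upstream site, 62480 and 15417 bp from the canonical TSS. At the canonical promoters the peaks had 7.67 for STAT3 and 7.99 for IRF1.

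IRF7 and SOCS7, which are 2 of the 10 genes without a promoter peak, were named after their values were seen. Of 120 words of 50 bp around the canonical TSS, 114 for IRF7 and 119 for SOCS7 also occur on alternate sequences of hg38. Whether the authors' reference held these sequences is not given in the sources used here, and their part in the missing peaks was not tested. The other 8 genes without a promoter peak had 0 to 4 such words. For the 9 genes this held for 0 to 4 words of 120. SOCS7 was the 1 gene of the 49 without any peak within 100 kb at 72 h.

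The protein-coding gene whose promoter enrichment over the 4 lists was closest to that of STAT3 was MITF, with no peak without Dox and 6.20, 12.1 and 23.1 at the Dox times. For STAT5B it was SGMS2 (5.34, no peak, 4.90 and 11.7), for STAT6 BNC1 (no peak, 5.05, 5.97 and 16.7) and for IRF1 SLC2A1 (6.54, 6.21, 8.93 and 22.2). The Euclidean distances of log2(1 + enrichment) over the 4 lists were 0.062, 0.085, 0.21 and 0.16. The value compared was that of the strongest promoter peak in each list, which need not be the same site. For IRF1 it was at the canonical promoter without Dox and at the upstream site at the Dox times. For STAT6 the 72 h value was at the site 22100 bp upstream of the canonical TSS, and the earlier values at the promoter site. No single site of IRF1 or STAT6 thus had the course compared. With 4 lists and a whole genome to choose from, near matches are easily found, and nothing about function follows.

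Peak lists show binding and not expression, so the cell type could only be looked at through promoters. Of 7 basal mammary epithelial markers 2, 1, 2 and 6 had a promoter peak, and of 5 blood cell markers 0, 0, 0 and 1. Among all protein-coding genes 9.42, 2.55, 9.1 and 58.5% had one. With so few markers, these counts do not settle the cell type. The lists also differed in depth. Solved from each list in turn, the background coverage came to 1.49, 1.42, 2.84 and 2.01 fragments, and the fewest fragments of a called summit at that background were 9, 9, 12 and 9. A site without a peak was therefore not detectable at this depth, and not shown to be free of TAZ.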

How the data were processed

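TAZ and IgG libraries of MCF10A cells with inducible TAZ-4SA were grouped by their titles, 1 library per antibody and condition. Per the methods of the study and the submitters' processing notes, the authors trimmed reads, mapped them with BWA to hg38 and ran MACS2 on each condition (false discovery rate 0.01). The sources used here give neither the versions of BWA and MACS2, nor read totals per library, nor whether IgG served as the control. The deposited lists give each peak's fold enrichment as a ratio over local background, with the pseudocount of 1 that MACS2 adds, and −log10 of its p-value and q-value, as the authors' caller wrote them, and the summit offset. They contain 0 columns of another series.

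Summits were annotated against GENCODE version 44, whose build is that of the lists, with the start sites of all transcripts of protein-coding genes. Coordinates are 1-based. ChIP fragments and background at each summit were solved from fold enrichment and Poisson p-value, and 100% of the deposited p-values were returned within 0.003 on the −log10 scale. The solution and the intervals were tested on simulated data. Intervals are exact Poisson (fragments), exact conditional binomial (ratios of 2 libraries, with background taken as known) and Clopper-Pearson (shares), at 95%. They cover counting error only. Overlap meant at least 1 bp. Motif letters were searched on both strands from 100 bp before to 100 bp after summits, and promoters were searched over 250 bases before the canonical TSS. The letters searched were TEAD CATTCC, AP-1 TGACTCA, STAT TTCNNNGAA, ISRE (GAAA, 2 bases, GAAA), RUNX ACCACA, ETS CGGAAG and GC box GGGCGG, of which RUNX and ETS are not described further. Some items are not reported here. Sequences and coordinates are those of hg38.

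Named were the 9 genes, the gene with the nearest TSS to a peak of theirs, the 3 of 49 other JAK-STAT genes (taken from general knowledge) with the highest promoter enrichment in each list, and the gene with the closest promoter pattern to each member with promoter peaks in at least 2 lists. IRF7 and SOCS7 fall outside this rule. The genes and lists were chosen with earlier results of these data known. Alternatives were a window of 50 kb, promoters of 1 kb, other transcripts, −log10 q of at least 5, fold enrichment of at least 5, nearest gene only, an overlap of 50% of both peaks, lists scaled to 1 depth and held to 1 threshold, and summit windows of 50 bp to each side. Scripts used Python 3.11.15, pandas 2.3.3, NumPy 2.4.6, SciPy 1.17.1, pysam 0.24.0 and matplotlib 3.10.9.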

Additional observations from a re-analysis of the deposited data

How the results depend on the processing

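Of 162 values recomputed under alternatives, 104 were counts, taken as moved when they differed by over 1.5 times, and 58 were shares, taken as moved when outside the exact interval of the main value. By this 20 counts and 9 shares moved. With promoters of 1 kb, promoter peaks were 4 at 48 h and 10 at 72 h, 1 gene had one without Dox, and 5 other JAK-STAT genes had one at 48 h. Counting start sites of protein-coding transcripts alone left 5 promoter peaks at 48 h and 1 gene without Dox. Counting the canonical TSS alone, an alternative chosen after seeing the data, left 1, 1, 2 and 7 promoter peaks and 1, 1 and 2 genes without Dox and at 24 and 48 h. When the member had to be the nearest gene, 4, 3, 11 and 33 peaks were left. A −log10 q of at least 5 left 6 peaks without Dox, of which 83.3% were called again at 48 h, and a fold enrichment of at least 5 left 6 peaks without Dox and 5 other JAK-STAT genes at 48 h. With an overlap of 50% of both peaks, fewer peaks were called again at 72 h. The shares were 9.09% of those without Dox, 0% of those at 24 h and 43.5% of those at 48 h. Of those without Dox, 9.09% were called again at 24 h and 27.3% at 48 h. Shares over all peaks under this rule are not given here, so the drop is not read as particular to the 9 genes. Median peak widths were 574, 408, 616 and 821 bp in the 4 lists, and the cause of the drop was not tested. In windows of 50 bp to each side TEAD letters were in 33.3% at 24 h and 26.1% at 48 h, and at 72 h AP-1 letters were in 9.09%, STAT letters in 2.60% and the GC box in 20.8%. Shares of AP-1 letters at 24 h (16.7%) and 48 h (13.0%), and of STAT letters (8.70%) and the GC box (13.0%) at 48 h, fell by over 1.5 times but stayed within their intervals, which are wide. Scaled to 1 depth and 1 threshold, the lists had 11, 6, 19 and 71 peaks near the 9 genes, and no value moved by 1.5 times.

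With 1 TAZ library per condition, none was left out, and the spread between cultures is unknown. No paired analysis was possible because each condition had 1 TAZ library. Differences in depth, antibody recovery or peak width between lists cannot be told apart from differences in binding.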
